A study of Mus musculus with 6 samples.

Results

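Type I interferon-induced genes are the genes that a cell switches on when its interferon alpha and beta receptor is engaged. The members were a list of 42 mouse genes of this kind, matched by symbol to the count files, and 40 of them had a row among the 32285 genes counted. The GTPase genes Mx1 and Mx2 were not analysed here. The 40 genes were read in marker-gated cancer cells, macrophages, neutrophils, T cells and dendritic cells of orthotopic pancreatic tumours, and the differences between libraries were examined in each class.

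The tumours were grown in the pancreas of wild-type C57BL/6 mice from KPC cells, a line from a genetically engineered mouse model of pancreatic cancer with Pdx1-Cre. The injected cells carried an empty vector (OE-Vector) or an Mlkl overexpression construct (OE-MLKL), Mlkl being the effector pseudokinase of necroptosis. The host mice were 6 to 8 weeks old, their own Mlkl gene was intact, and tumours were taken 4 weeks after injection. Whether each KPC line was 1 clone was not given in the sources used here. Of 6 samples, 3 in each group, the counts of OE-Vector 1 and of all OE-MLKL libraries were read, and OE-Vector 2 and 3 were not analysed here. With 1 library, the OE-Vector group had no spread of its own.

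Type I interferons bind a receptor made of IFNAR1 and IFNAR2, and the kinases JAK1 and TYK2 then phosphorylate transcription factors that include STAT2. With IRF9 they form the complex ISGF3, which binds the interferon-stimulated response element in the promoters of target genes. Many of the induced proteins act on foreign nucleic acid or viral particles, and in tumours the same genes respond to interferon released after DNA or RNA sensing. Interferon gamma uses another receptor, and its targets overlap with the list.

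The members lay on 15 chromosomes, and several stood side by side. Ifit2 (chr19:34550694-34576419), Ifit3 (chr19:34583531-34588731), Ifit3b (chr19:34607970-34613401) and Ifit1 (chr19:34640871-34650009) followed each other on the plus strand of GRCm38 in the GENCODE vM21 annotation. Rsad2 (chr12:26442746-26456452, minus strand) and Cmpk2 (chr12:26469204-26479837, plus strand) were divergent neighbours, and Isg15 lay at chr4:156199424-156200818 on the minus strand. A gene on the other strand overlapped 15 members. A gene on the same strand overlapped 4, and the counts of these 4 may hold reads of the neighbour. Ifit3 and Ifit3b are near copies, since the last 300 bases of Ifit3 matched Ifit3b at 94.3% of bases, and Phf11b matched Phf11d at 92%. Counts within each of these pairs are uncertain.

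The core of the response element was searched as GAAA, any 2 bases and GAAA on both strands in windows of 300 bases, 250 before and 50 after each start, taken from RefSeq on GRCm38.p6. Of the 40 members, 33 had a window, and 16 of these (48.5%) held the motif, against 1079 of 27025 genes (3.99%). The other 17 members with a window had no match of these letters in it. Among the 8 members named for neutrophils, Oasl2 and Slfn4 had no match in the window, and Ifitm3 had one only past its start. The stretches below belong to the other 5, and capitals mark the motif or its reverse complement. They are printed 5′ to 3′ on the strand of the gene, from chr4:156200835-156200924 (minus strand) for Isg15, chr19:34640764-34640853 (plus) for Ifit1, chr19:34583367-34583456 (plus) for Ifit3, chr19:34607763-34607852 (plus) for Ifit3b and chr7:104465194-104465269 (minus) for Trim30a.
Isg15: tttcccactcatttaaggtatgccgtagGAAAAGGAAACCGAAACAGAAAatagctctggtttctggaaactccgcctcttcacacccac
Ifit1: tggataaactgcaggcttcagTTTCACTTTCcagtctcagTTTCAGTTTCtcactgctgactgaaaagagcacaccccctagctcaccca
Ifit3: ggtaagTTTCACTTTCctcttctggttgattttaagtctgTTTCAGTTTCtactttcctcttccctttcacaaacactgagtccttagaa
Ifit3b: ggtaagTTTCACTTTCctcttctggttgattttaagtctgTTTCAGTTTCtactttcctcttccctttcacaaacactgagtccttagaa
Trim30a: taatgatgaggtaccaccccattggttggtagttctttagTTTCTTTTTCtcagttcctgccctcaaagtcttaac
Isg15 held 3 overlapping matches in direct order, Ifit1 2 matches in reverse order, and Trim30a 1 before its start. The stretches of Ifit3 and Ifit3b were the same 90 letters. A match describes the sequence and is no evidence of binding.

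The 4 libraries held 150591289 to 169978362 UMIs, each UMI being 1 captured transcript molecule, and 74545 cells in all. Each pair of libraries shared 73 to 134 cell barcodes. The gates, which used no member, took 2987, 7470, 8296 and 3953 cancer cells from OE-Vector 1, then OE-MLKL 1, 2 and 3. They took 2032 to 3066 macrophages, 5224 to 8384 neutrophils, 572 to 1027 T cells and 60 to 183 dendritic cells per library. All check markers of macrophages, neutrophils, T cells and dendritic cells were detected in the class they mark. In gated cancer cells Cdkn2a, Krt17 and Lamb3 stayed under 1 CPM, and the check rested on Gm49504 and Itgb4. The gate marker Krt8 had 582, 451, 733 and 493 CPM in cancer cells and 28.3, 24.1, 45.4 and 45.3 CPM in T cells. The gate marker Epcam had only 3.36, 3.46, 4.03 and 18.8 CPM in cancer cells, against 18.6, 6.33, 4.91 and 22.4 CPM in T cells. Pdgfrb, a fibroblast marker, had 127, 74.2, 76.2 and 115 CPM in cancer cells. The gates left out no cells for fibroblast markers, and admixture of such cells was not tested. The share of gated cancer cells under 2 times the cut was 13.1% in OE-Vector 1, against 57.6% in the first, 33.96% in the second and 29.6% in the last OE-MLKL library. Mlkl had 16.5 CPM (UMIs of a gene per 1000000 UMIs of that class) in cancer cells of OE-Vector 1 and 8.595, 12.9 and 19.7 CPM in OE-MLKL 1, 2 and 3, a log2 difference of -0.40 ± 0.39 (SE) with an adjusted p of 0.999 by edgeR. The counts come from the 3′ end of transcripts, and whether the construct holds that end was not given in the sources used here, so that they do not check the labels. All directions below are between libraries as labelled.

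Without Ifitm3, neutrophils carried the largest summed level of the members in every library. Ifitm3 alone made up 56.9% to 78.03% of member UMIs in cancer cells, so sums are given without it. In neutrophils the other 39 genes summed to 5762 CPM in OE-Vector 1, 1109.6 in OE-MLKL 1, 1456 in OE-MLKL 2 and 3647 in OE-MLKL 3. In macrophages they summed to 2179, 1064, 1204 and 1572 CPM in the same order, and in cancer cells to 1535, 614, 732 and 1230.3 CPM. T cells held 1198, 514, 693 and 1072 CPM, and dendritic cells 1388, 803, 1192 and 1396 CPM. OE-Vector 1 was highest and OE-MLKL 1 lowest in the 4 classes other than dendritic cells, with OE-MLKL 3 second. In OE-MLKL 1, neutrophils and macrophages were nearly level. In dendritic cells OE-MLKL 3 and OE-Vector 1 were nearly level. Barcodes with at most 100 UMIs, which hold free RNA, had the same order with 2055, 743, 847 and 1376 CPM. The level of a foreign class's markers in a gated class was 6.73% to 16.9% of their level in those barcodes. The gates left out cells with a foreign class's markers, which lowers that share, so it is not a measure of the free RNA in a class.

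**Figure D1:**
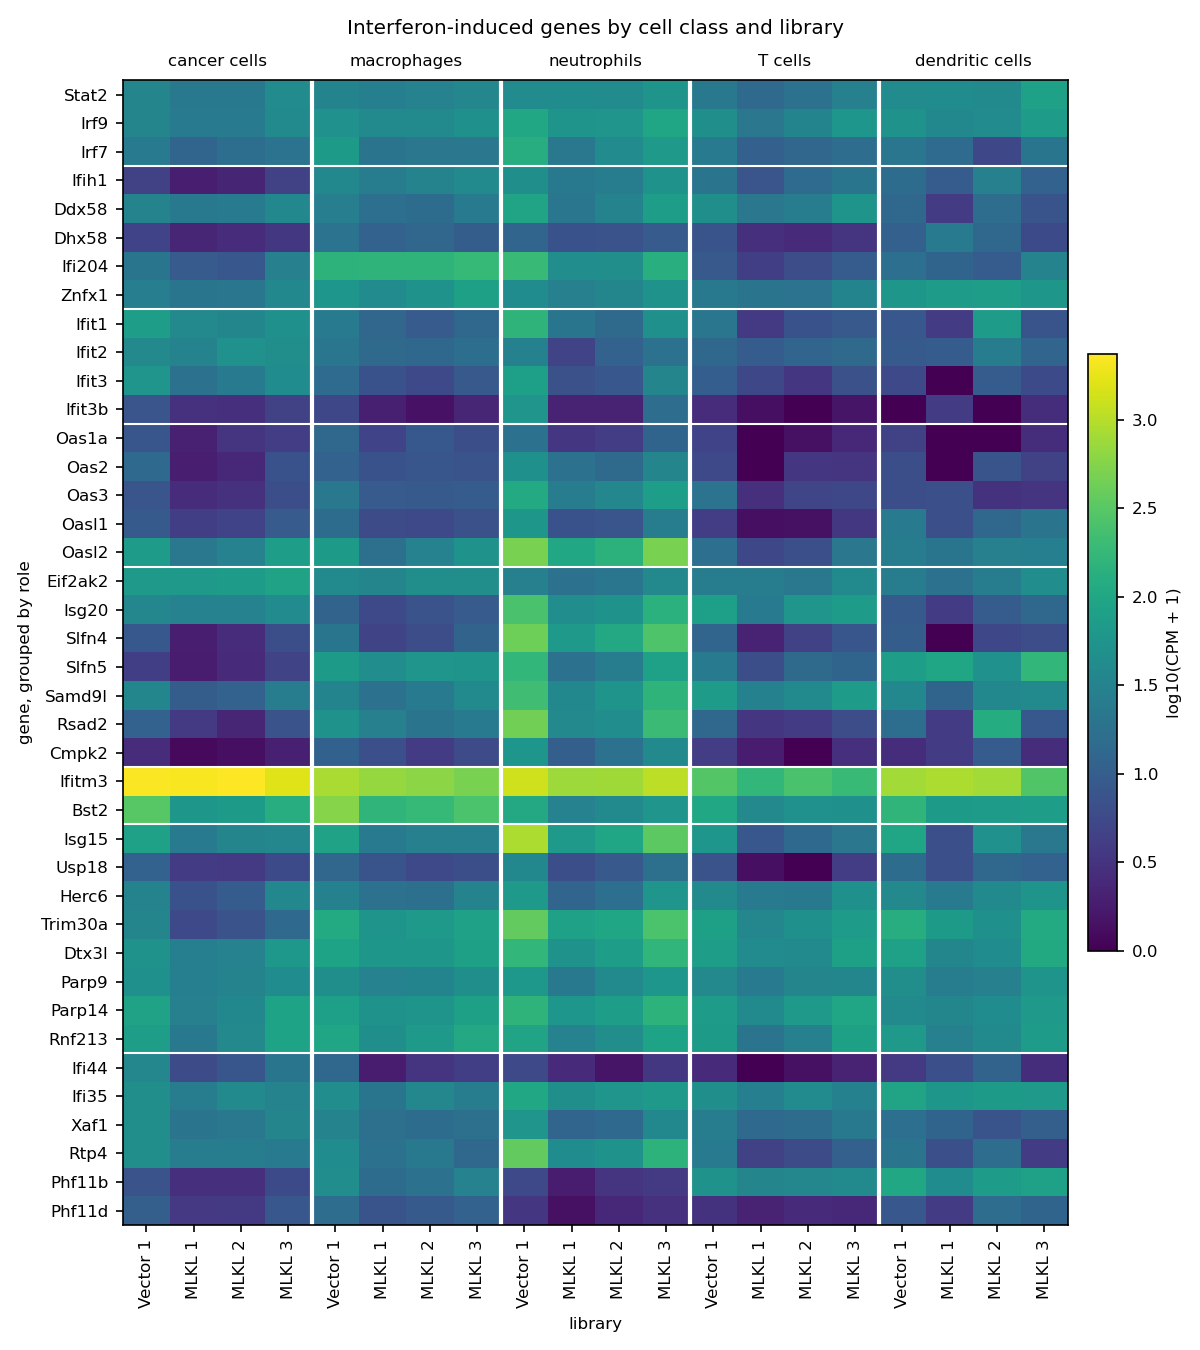
Level of each of the 40 genes, as log10(CPM + 1), in 5 cell classes and 4 libraries, with genes grouped by role. Ifitm3 is the brightest row in every class, and the neutrophil block of OE-Vector 1 and OE-MLKL 3 is brighter than that of OE-MLKL 1 and 2 for most genes.

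Depth moved with the libraries. Median UMIs per neutrophil were 1208 in OE-Vector 1, 736, 771 and 1433 in OE-MLKL 1, 2 and 3, and per cancer cell 25421, 12615, 12240.5 and 20360. Among neutrophils of 500 to 1000 UMIs, a range chosen after the data were seen, the sum without Ifitm3 was 5042, 1090.3, 1396 and 3188 CPM, with a median of 874, 674, 712 and 894 UMIs per cell. The ratio of OE-Vector 1 to the mean of the OE-MLKL libraries was 2.67 there and 2.78 over all neutrophils. In ranges chosen in the same way it was 1.70 in cancer cells of 5000 to 20000 UMIs, 1.74 in macrophages of 3000 to 8000, 1.78 in T cells of 2000 to 5000 and 1.55 in dendritic cells of 3000 to 10000, against 1.79, 1.70, 1.58 and 1.23 over all cells. These ranges narrowed the difference in depth and did not remove it, since median UMIs inside them were still 16725.5, 11243.5, 11284.5 and 15998 in cancer cells and 6349, 4495.5, 4891 and 6328 in macrophages.

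The classes were compared with a library term over 20 sums, each class against the mean of the other 4, and 13919 genes were tested. Neutrophils were higher for 33 of 40 members and lower for 4, where 31.8% of all genes were higher and 37.4% lower in neutrophils (edgeR, Benjamini-Hochberg adjusted p under 0.05). T cells were lower for 30 members and higher for 3, against 30% and 31.5% of genes. Macrophages were higher for 14 and lower for 2 (29.9% and 25.1% of genes), cancer cells higher for 8 and lower for 22 (41.6% and 31.3%), and dendritic cells higher for 8 and lower for 10 (19.1% and 19.2%). The median log2 difference of the members was 1.67 in neutrophils, 0.18 in macrophages, -0.29 in dendritic cells, -0.45 in cancer cells and -1.10 in T cells, where the medians of all genes lay between -0.11 and 0.12. By mean CPM over the libraries, neutrophils held the highest level of 23 members, dendritic cells of 7, cancer cells of 6, macrophages of 4 and T cells of none. For 12 of the 23, neutrophils were highest in all 4 libraries.

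Several members were highest in 1 class, and some of these were also higher in another. Slfn4, a member of the schlafen family, was 5.47 ± 0.11 (SE, log2) above the other classes in neutrophils, with an edgeR adjusted p of 9.65e-19. Oasl2, a protein related to the oligoadenylate synthetases, was 3.61 ± 0.13 above them and Isg15, the ubiquitin-like modifier, 3.14 ± 0.23. Cmpk2, a mitochondrial nucleotide kinase, was 4.10 ± 0.26 above and Rsad2, the antiviral enzyme viperin, 3.73 ± 0.45. Ifi204, an interferon-inducible DNA sensor, was highest in macrophages at 3.30 ± 0.22 above the other classes and also higher in neutrophils, at 2.25 ± 0.22. Bst2 (tetherin, which holds budding virus at the membrane) was highest in macrophages as well, at 1.90 ± 0.12. Ifitm3, which blocks viral entry at endosomes, was 1.75 ± 0.17 higher in cancer cells, as were Ifi44 at 2.74 ± 0.27 and Eif2ak2, the RNA-dependent kinase PKR, at 1.08 ± 0.12. Phf11b was 2.95 ± 0.19 higher in dendritic cells, and it was higher in macrophages and T cells too, at 1.05 ± 0.15 and 1.68 ± 0.16. Slfn5 was 2.47 ± 0.37 higher in dendritic cells, 1.82 ± 0.30 in neutrophils and 1.66 ± 0.30 in macrophages. Apart from Slfn5 in macrophages, with 0.000102, all of these had an edgeR adjusted p of at most 2.61e-05.

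The classes also differed by role. All 4 IFIT genes were higher in cancer cells than in the other classes, from 1.16 ± 0.51 for Ifit3b to 2.01 ± 0.27 (SE, log2) for Ifit3, and 3 of them, Ifit1, Ifit3 and Ifit3b, were higher in neutrophils as well, the contrast being with the mean of the other 4. In T cells all 4 IFIT genes were lower. All 5 oligoadenylate synthetases and like proteins were higher in neutrophils, by 1.81 ± 0.27 for Oas1a to 3.68 ± 0.18 for Oas3. Of the 5 sensors, 4 were higher in macrophages and 4 in neutrophils. The RNA helicases Ifih1 (MDA5) and Dhx58 (LGP2) were 1.73 ± 0.18 and 1.44 ± 0.20 higher in macrophages. By mean CPM, however, Ifih1 was highest in neutrophils, with 36.5 against 33.0 in macrophages. Dhx58 was highest in dendritic cells, with 12.52 against 12.45 CPM in macrophages. Ifih1 was lower in cancer cells, at -3.50 ± 0.23. The 4 members that were lower in neutrophils were Eif2ak2, Bst2, Phf11b and Phf11d. The 3 that were higher in T cells were the RNA helicase Ddx58 (RIG-I), Isg20 and Phf11b.

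**Figure D2:**
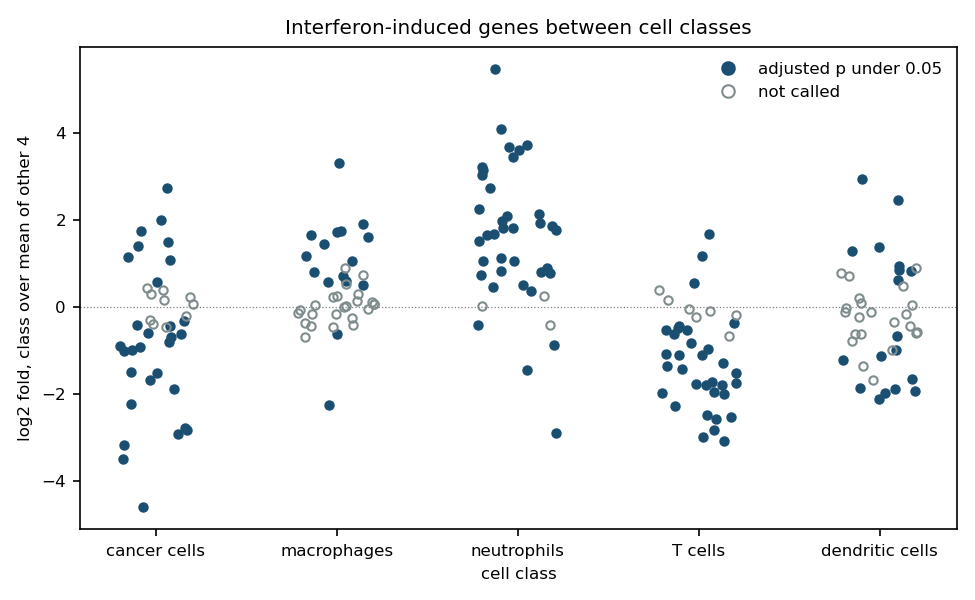
Difference of each of the 40 genes between a class and the mean of the other 4 (log2, y axis) for each class (x axis), where filled points had an edgeR adjusted p under 0.05. Neutrophils have 33 filled points above 0, and T cells have 30 below it.

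Fold changes are those of OE-MLKL over OE-Vector, and a log2 difference between libraries is the same quantity on the log2 scale. The comparison of these labels asked whether Mlkl in the injected cells goes with another interferon response. No member was called in any class by the edgeR quasi-likelihood test at a Benjamini-Hochberg adjusted p under 0.05, where 0.00568% of genes were called in cancer cells, 0.0143% in macrophages, 0% in neutrophils, 0.00861% in T cells and 0.0117% in dendritic cells. With 1 library against 3 the fit had 2 residual degrees of freedom among libraries. Differences are therefore given as values, not as changes. By the fitted log2 fold change, in neutrophils all 40 members were lower in the OE-MLKL libraries, in macrophages 39, in cancer cells 38, in T cells 33 of 35 tested and in dendritic cells 18 of 31 tested. By mean CPM the counts were 39 in neutrophils, where Stat2 was the exception, 37 in macrophages, 38 in cancer cells, 33 in T cells and 18 in dendritic cells. The median log2 fold change of the members was -1.59 in neutrophils, -0.99 in cancer cells, -0.91 in macrophages, -0.70 in T cells and -0.25 in dendritic cells, and the medians of all genes tested were 0.04, 0.03, 0.04, 0.03 and 0.05. The members ranged from -3.44 to -0.11 in neutrophils, from -2.43 to 0.06 in cancer cells, from -2.64 to 0.01 in macrophages, from -2.52 to 0.16 in T cells and from -1.97 to 1.67 in dendritic cells. Ifit3b, Oasl1, Cmpk2, Ifi44 and Phf11d were too low to test in T cells, and Ifit3, Ifit3b, Oas1a, Oas2, Oas3, Isg20, Slfn4, Cmpk2 and Ifi44 in dendritic cells.

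An unadjusted p under 0.05 with a lower level in OE-MLKL was reached by 24 members in neutrophils (5.11% of all genes), 22 in macrophages (3.31%), 19 in cancer cells (3.11%), 12 in T cells (2.51%) and 2 in dendritic cells (2.5%). OE-Vector 1 lay above all 3 OE-MLKL libraries for 36 of 40 members in neutrophils, where 16% of genes tested did so. The same held for 30 of 40 in macrophages (17.8%), 24 of 40 in cancer cells (18.2%), 21 of 35 tested in T cells (18.3%) and 10 of 31 tested in dendritic cells (20.9%). OE-MLKL 3 was the highest of the OE-MLKL libraries for all 40 members in neutrophils (44.4% of genes tested), for 36 of 40 in cancer cells (57.2%), 29 of 40 in macrophages (46.2%), 30 of 35 tested in T cells (58%) and 16 of 31 tested in dendritic cells (43.7%). Many members thus ranked the libraries alike, so they are not independent of each other. Counts of members against the labels rest on 1 OE-Vector library, however many members they hold. The ratio of the highest to the lowest library had a median over members of 5.07 in neutrophils, 3.45 in cancer cells and 2.28 in macrophages. It was 3.23 in dendritic cells and 2.62 in T cells, over the 35 and 34 members with a UMI in every library.

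The calls depended on which libraries entered the fit. Without OE-MLKL 3, edgeR called 28 members in neutrophils (4.38% of genes), 16 in cancer cells (2.1%), 18 in T cells (8.04%), 5 in macrophages (0.859%) and 4 in dendritic cells (3.7%), in a fit with 1 residual degree of freedom fewer. Without OE-MLKL 1 it called 2 members in neutrophils (0.39% of genes), 4 in cancer cells (0.72%), 2 in T cells (0.382%), 7 in macrophages (0.913%) and 0 in dendritic cells (0.198%). Without OE-MLKL 2 it called 1 member, in T cells (0.185% of genes). DESeq2 called 4 members each in neutrophils (0.732% of genes), cancer cells (0.557%) and macrophages (0.509%), and none in T cells (0.0861%) or dendritic cells (0%). They were Isg15, Oasl1, Rtp4 and Ifit1 in neutrophils, Isg15, Usp18, Trim30a and Bst2 in cancer cells, and Ifi44, Isg15, Irf7 and Bst2 in macrophages.

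**Figure D3:**
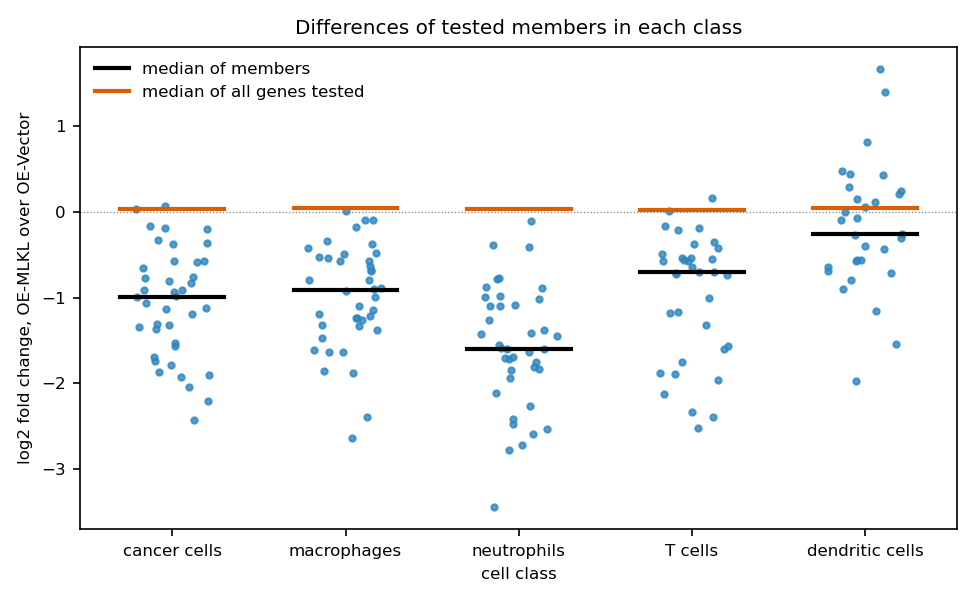
Log2 fold change of the libraries labelled OE-MLKL over OE-Vector (y axis) for each tested member in 5 cell classes, with the median of members (black) and of all genes tested (orange). The neutrophil median is -1.59 and the dendritic cell median -0.25, and the medians of all genes lie at 0.03 to 0.05.

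In neutrophils the IFIT proteins, which bind foreign RNA and block its translation, had a median log2 fold change of -2.68 over 4 members. Ifit1 had 155 CPM in OE-Vector 1 and 19.1, 13.7 and 47.9 CPM in OE-MLKL 1, 2 and 3, a log2 difference of -2.78 ± 0.60 (SE). Ifit3 had 79.2, 5.88, 7.298 and 33.4 CPM in the same order. Ifit3b had 55.5, 1.09, 1.08 and 15.1 CPM, on 481, 5, 8 and 162 UMIs, with the largest log2 fold change of the list at -3.44 ± 1.13 (SE). That value ran from -5.89 without OE-MLKL 3 to -2.99 without OE-MLKL 2. In these 3 genes OE-Vector 1 stood highest and OE-MLKL 3 between it and the other two, without overlap of the labels. Their edgeR adjusted p were 0.554, 0.557 and 0.563.

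The gated neutrophils also differed between libraries in their own markers. Of 15 neutrophil markers, 5 were higher in OE-Vector 1 than in every OE-MLKL library, 3 were lower and 7 lay within their range. G0s2 had 3403 CPM in OE-Vector 1 and 369, 388 and 1549 CPM in the others, and Mmp9, a granule protease, 1557, 532, 625 and 1063 CPM, both in the order of the member sums. Acod1, which makes itaconate, had 723, 118, 139 and 840 CPM. Retnlg went the other way with 1505, 9081, 4833 and 6400 CPM, and so did Mmp8 with 173, 944, 758 and 528 CPM. Of 12 marker lists of other cell types, 5 summed highest in OE-Vector 1, and those of plasmacytoid dendritic cells and red blood cells (at most 2.999 CPM in each) had the order of the member sums. These 5 genes were singled out after their values were seen, and their part in the member differences was not tested.

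Isg15, the modifier conjugated to new proteins in infected cells, had 902 CPM in OE-Vector 1 and 63.3, 98.4 and 332 CPM in OE-MLKL 1, 2 and 3 in neutrophils. The log2 fold change was -2.72 ± 0.79 (SE) with an edgeR adjusted p of 0.554, and -3.71 without OE-MLKL 3. Trim30a, a TRIM-family ligase, had 359, 83.1, 94.7 and 264 CPM, and Slfn4 had 417, 62.9, 107 and 276 CPM. OE-MLKL 3 lay nearer to OE-Vector 1 than to OE-MLKL 1 for both. Oasl2 had 488 CPM in OE-Vector 1 and 104, 147 and 486 CPM in the others, so that OE-MLKL 3 was level with OE-Vector 1, and its log2 fold change ran from -2.19 to -0.90 with 1 OE-MLKL library left out. Ifitm3 had 1339.7, 743, 774 and 1078 CPM, the smallest fold among these members. Stat2, Ifih1, Znfx1 and Eif2ak2 were the 4 members for which OE-Vector 1 lay within the OE-MLKL range. They were seen only as exceptions to the count above and were named after their values were known.

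**Figure D4:**
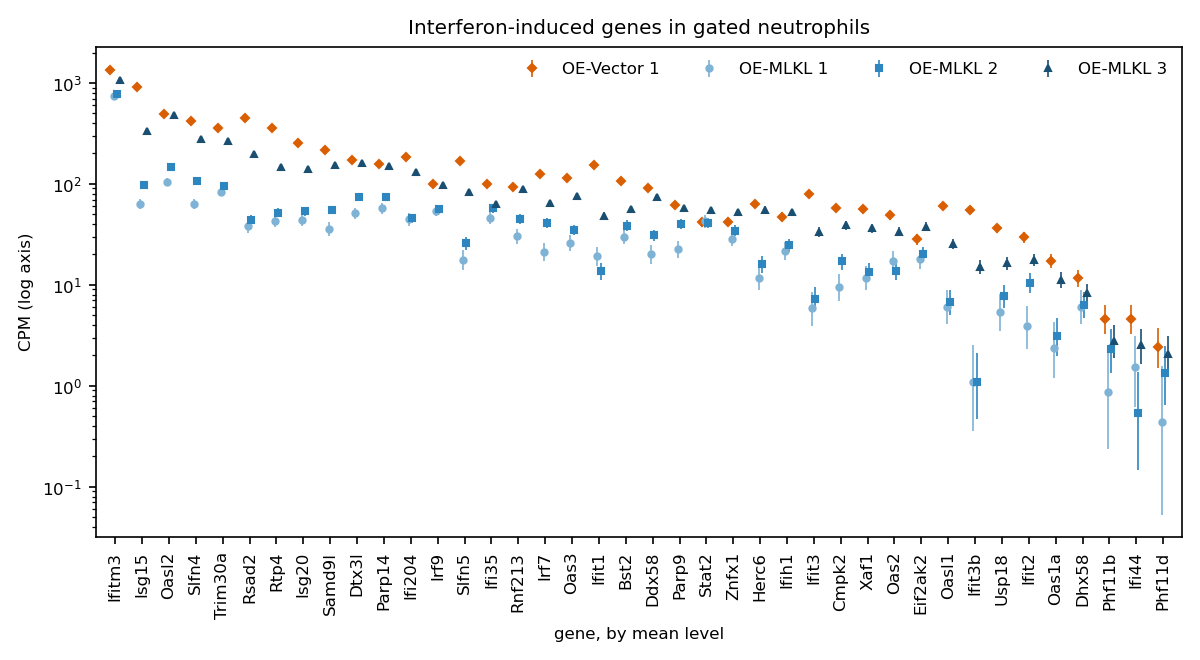
CPM (log axis) of each of the 40 genes in gated neutrophils of 4 libraries, with exact 95% Poisson intervals for counting error. OE-Vector 1 is the highest point for 36 genes, and OE-MLKL 3 is the highest of the OE-MLKL libraries for all 40.

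By role in neutrophils, the oligoadenylate synthetases and like proteins, which make the activator of RNase L or are related to them, had a median log2 fold change of -1.59 over 5 members. The RNA-acting and nucleotide effectors had -1.75 over 7, the ubiquitin-like modifier with its ligases and ADP-ribosyltransferases -1.27 over 8, the RNA and DNA sensors -0.99 over 5, and Stat2, Irf9 and Irf7 -0.77 over 3. The members that transduce or sense were thus nearer to 0 than the IFIT genes, a difference that was not tested. The neutrophil difference was also set against the mean difference of the other 4 classes in 1 fit chosen after the data were seen. No member was called there (0.0862% of genes), 13 were lower at an unadjusted p under 0.05 (6.75%), and the median over members was -0.59 against -0.02 for all genes. The smallest edgeR adjusted p was 0.111, for Isg20, an RNA exonuclease. Without OE-MLKL 3 that fit called 20 members and 5.77% of genes, and without either of the others none.

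After each cell was thinned to 500 UMIs, 34.2% of neutrophils in OE-Vector 1 held 3 or more UMIs of members other than Ifitm3 (exact 95% interval 33.03% to 35.4%, for counting error only). The share was 4.48% in OE-MLKL 1, 6.43% in OE-MLKL 2 and 23.6% in OE-MLKL 3. The top 10% of neutrophils held 45.1%, 52.9%, 47.4% and 40.4% of these thinned UMIs in the 4 libraries. In macrophages the share of cells was 11.1%, 2.48%, 3.56% and 5.94%, in cancer cells 5.76%, 1.14%, 1.54% and 4.48%, and in T cells 5.16%, 0.524%, 1.53% and 2.5%. Dendritic cells had 5.41%, 1.67%, 2.41% and 5.46% with wide intervals, 2.01% to 11.4% in OE-Vector 1. Unthinned, the neutrophil shares were 63.7%, 10.2%, 15.1% and 61.98%, and every other class had a higher unthinned share in each library. In OE-Vector 1 it was 94.2% in cancer cells, 94.3% in macrophages, 74.9% in T cells and 91.9% in dendritic cells. Median depth there was 1208 UMIs per neutrophil and 25421 per cancer cell, so the lead of neutrophils in this share of cells holds at equal depth only. No class is known to lack these genes, so that no background share could be read from one.

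**Figure D5:**
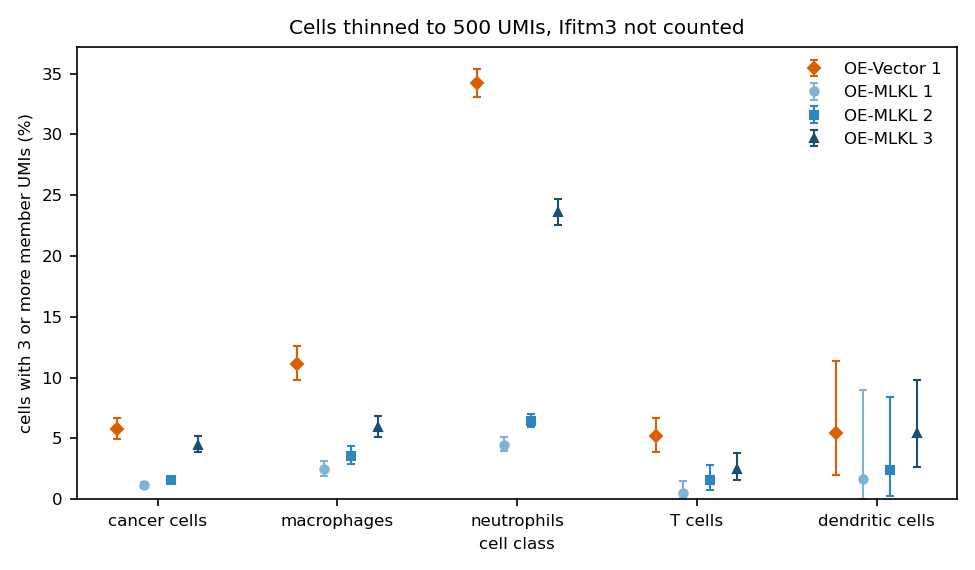
Share of cells with 3 or more UMIs of members other than Ifitm3 (y axis, %) after thinning to 500 UMIs, by class and library. Bars are exact 95% binomial intervals. Neutrophils of OE-Vector 1 are at 34.2% and of OE-MLKL 3 at 23.6%, above 4.48% and 6.43% in OE-MLKL 1 and 2.

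In macrophages the libraries labelled OE-MLKL lay close together for a few members. Irf7, the transcription factor that amplifies interferon production, had 68.7 CPM in OE-Vector 1 and 18.9, 21.03 and 20.7 CPM in OE-MLKL 1, 2 and 3. The log2 fold change was -1.88 ± 0.23 (SE) and the edgeR adjusted p 0.189, the smallest of all members in that class. Isg15 had 87.6, 22.5, 28.2 and 28.2 CPM, with an edgeR adjusted p of 0.222. OE-MLKL 3 was here level with OE-MLKL 2 for both genes, whereas in neutrophils it stood above. Ifi44 had 12.2, 0.876, 2.295 and 3.17 CPM on 223, 11, 31 and 72 UMIs, and Ifit3b 4.38, 0.955, 0.444 and 1.28 CPM on 80, 12, 6 and 29 UMIs.

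The 5 most abundant members of macrophages differed to unlike extents. Bst2 had 570.0, 158, 183 and 263 CPM, a log2 difference of -1.63 ± 0.32 (SE), and Ifitm3 877, 677, 606 and 489 CPM. OE-Vector 1 was highest for both. Trim30a had 115 CPM against 53.9, 65.5 and 84.4. Rnf213, a large ubiquitin ligase, had 98.8 CPM in OE-Vector 1 within a range of 46.6, 64.8 and 107 CPM. Ifi204 had 151 CPM in OE-Vector 1 and 156, 156 and 182 CPM, all above it, with a log2 difference of 0.01 ± 0.27 (SE). Monocyte markers, 4 genes read in every class, summed to 274 CPM in macrophages of OE-Vector 1 and to 152, 197 and 153 CPM in the others. Only Ccr2 and Plac8 were above the OE-MLKL libraries in OE-Vector 1, while Vcan was below them at 5.26 against 9.23, 6.89 and 5.41 CPM, and Ly6c2 lay within them at 11.7 against 44.7, 30.4 and 5.23 CPM. Of 12 marker lists of other cell types, 5 summed highest in OE-Vector 1. The lists of T cells (73.1, 29.8, 33.2 and 55.8 CPM), endothelial cells (45.3, 10.4, 14.4 and 26.4 CPM) and red blood cells (1.86, 0.0796, 0.148 and 0.792 CPM) had the order of the member sums. Single genes weighed on these sums. Pecam1 made up most of the endothelial sum in OE-Vector 1, with 35.5, 2.87, 2.15 and 19.0 CPM. Vwf of the same list had 6.95, 5.41, 10.3 and 4.71 CPM. Il7r of the T cell list had 37.3, 14.6, 9.40 and 20.5 CPM. Of 8 T cell gate markers, 4 were above every OE-MLKL library in OE-Vector 1 and 4 within. Of 14 macrophage markers, 5 were above every OE-MLKL library in OE-Vector 1, 6 below and 3 within. Ms4a7 had 1110 CPM in OE-Vector 1 and 380, 457 and 907 CPM in the others, and Adgre1, which encodes F4/80, 393, 174, 242 and 333 CPM, both in the order of the member sums. Pf4 had 1966, 396, 606 and 395 CPM, and Cd163, a scavenger receptor for haemoglobin, 10.8, 123, 113 and 15.04 CPM. These 4 were singled out after their values were seen. The part of all these genes in the differences was not tested.

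In cancer cells Ifitm3 had 2233 CPM in OE-Vector 1 and 2182, 2349 and 1621 CPM in OE-MLKL 1, 2 and 3, with no separation of the labels. Bst2 had 315, 60.1, 68.6 and 125 CPM, a log2 difference of -2.04 ± 0.35 (SE) and an edgeR adjusted p of 0.697. Trim30a had 32.9, 4.54, 6.24 and 13.03 CPM, Ifi44 35.3, 5.02, 6.91 and 19.5 CPM, and Oas2 13.1, 0.922, 1.36 and 6.14 CPM. OE-Vector 1 was above the others for these 4, and OE-MLKL 3 came second. Parp14, an ADP-ribosyltransferase, had 86.4 CPM against 28.4, 36.7 and 89.6, and Rnf213 74.4 CPM against 22.1, 37.6 and 88.1. For both, OE-MLKL 3 exceeded OE-Vector 1. Eif2ak2 was nearly level with 65.2, 64.4, 69.98 and 86.3 CPM. Of the 4 monocyte markers read in cancer cells, Plac8 made up nearly all of the sum, with 686 CPM in OE-Vector 1 and 324, 204 and 373 CPM in the others, so that OE-MLKL 2 was lowest and not OE-MLKL 1. Of 12 marker lists of other cell types, 6 summed highest in OE-Vector 1, and the list of T cells did so in the order of the member sums, with 39.1, 11.1, 16.7 and 33.1 CPM. Ly6c2, Ccr2 and Vcan stayed between 0.627 and 6.75 CPM. Of 23 markers of the cancer cells themselves, 5 were above every OE-MLKL library in OE-Vector 1, 11 below and 7 within. Fst had 1345, 449, 648 and 1050 CPM, Col18a1 650, 244, 315 and 541 CPM, Tnc 293, 69.2, 96.6 and 151 CPM and Ehf 260.3, 59.9, 95.02 and 257 CPM, the order of the member sums. Msln, with 9.19, 68.8, 56.4 and 19.7 CPM, and Cadm1, with 56.3, 203, 136 and 93.3 CPM, ran the other way. The 4 haemoglobin genes summed to 28.1 CPM in OE-Vector 1 and 0.206, 0.16 and 0.312 CPM in the others. These markers were singled out after their values were seen, and their part in the member differences was not tested.

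In T cells Isg15 had 57.3 CPM in OE-Vector 1 and 7.12, 13.1 and 20.4 CPM in OE-MLKL 1, 2 and 3, a log2 difference of -2.13 ± 0.38 (SE) with an edgeR adjusted p of 0.264. Oas3 had 18.03, 1.98, 4.09 and 4.42 CPM on 95, 5, 10 and 16 UMIs. Ifit1 had 20.1, 2.77, 6.13 and 7.73 CPM and Rtp4, a chaperone of receptor transport, 23.5, 3.56, 4.91 and 9.94 CPM. OE-Vector 1 stood above the others for these 4 members. Bst2 had 99.8, 37.95, 49.9 and 48.03 CPM, and Ifitm3 290.4, 168, 255 and 186 CPM. Trim30a had 82.2, 35.6, 48.3 and 72.05 CPM. Dtx3l, a ubiquitin ligase that pairs with PARP9, had 76.3 CPM in OE-Vector 1 against 41.5, 40.1 and 81.99, and Parp14 71.4 CPM against 40.3, 64.6 and 95.5. For Dtx3l and Parp14 the labels overlapped. Of 14 T cell markers, 8 were above every OE-MLKL library in OE-Vector 1, 1 below and 5 within, with Bcl11b at 210.1, 107, 123 and 196 CPM. All 5 B cell markers were above in OE-Vector 1, summing to 17.6 CPM there and 4.74, 7.36 and 12.7 CPM in the others. The genes listed as monocyte markers summed to 1023 CPM in T cells of OE-Vector 1 and 826, 725 and 655 CPM in the others. Plac8 made up most of that sum, with 700, 748, 523 and 444 CPM. Ly6c2 had 202, 56.1, 133 and 144 CPM and Ccr2 119, 21.7, 64.6 and 64.04 CPM. Vcan of the same list had only 0.949, 0.791, 4.91 and 2.48 CPM. Of 12 marker lists of other cell types, 5 summed highest in OE-Vector 1 and 3 had the order of the member sums, namely those of B cells, of dendritic cells (6101, 2370, 3190 and 5285 CPM) and of plasmacytoid dendritic cells (58.3, 20.95, 42.1 and 52.4 CPM). The dendritic cell sum was mostly Ccl5, with 5190, 1901, 2661 and 4465 CPM, while Xcr1, Clec9a and Flt3 had at most 2.47 CPM. Ccr9 made up nearly all of the plasmacytoid sum, with 58.07, 20.95, 42.1 and 52.4 CPM, and Siglech had at most 0.19 CPM. The part of these markers was not tested.

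The gated dendritic cells, 111, 60, 83 and 183 in number, differed in make-up between the libraries. Xcr1, a marker of cross-presenting dendritic cells, had 485, 158, 218 and 868 CPM, and the chemokine gene Ccl17 335, 2010, 2279 and 230 CPM, values singled out after they were seen. Of 17 dendritic cell markers, 7 were above every OE-MLKL library in OE-Vector 1, 0 below and 10 within. Of 12 marker lists of other cell types, 4 summed highest in OE-Vector 1, the list of macrophages with 1467, 572, 999 and 989 CPM. The part of these markers in the member differences was not tested. Single cells decided some values. Rsad2 had 15.3 CPM in OE-Vector 1 and 2.82, 123 and 7.605 CPM in OE-MLKL 1, 2 and 3, a log2 difference of 1.40 ± 1.14 (SE). In OE-MLKL 2, 1 cell held 52 of the 57 UMIs of Rsad2 and 1 cell held 31 of the 32 of Ifit1. Left without OE-MLKL 2, Rsad2 had a log2 difference of -1.35. Isg15 had 97.2, 5.64, 49.6 and 21.6 CPM, on 108, 2, 23 and 37 UMIs, and in OE-Vector 1 a single cell held 47 of the 108. Bst2 had 158, 67.6, 71.2 and 77.2 CPM, and Phf11b 104, 42.3, 71.2 and 84.8 CPM, with OE-Vector 1 above the others for both. Trim30a had 123, 67.6, 47.5 and 113 CPM. Slfn5 had 75.6 CPM in OE-Vector 1 against 95.8, 49.6 and 169.6, and Ifitm3 801 CPM against 913, 799 and 283, and for both the labels overlapped.

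Of the pathway around the members, 40 further genes were read, and edgeR called 0 in any class. The ligand genes Ifna1, Ifna2, Ifna4, Ifna5, Ifnl2 and Ifnl3 had 0 UMIs among 571561151 UMIs of cells, which allows up to 0.00525 CPM, and Ifnb1 had 14 UMIs in 6 cells. Ifnk had 12 UMIs in 12 cells and Ifne 6 UMIs in 6 cells, among the gated cells nearly all in cancer cells. The absence of UMIs of the other ligands says only that the transcripts were not detectable at this depth. Ifng, the ligand of the gamma receptor, had 287, 134, 148 and 281 CPM in T cells in the usual order of libraries, so that OE-Vector 1 and OE-MLKL 3 were level. Of the receptor genes tested, 4 of 5 were lower under the OE-MLKL label in cancer cells and 5 of 5 in neutrophils. In T cells 3 of 4 were lower, and in macrophages and dendritic cells 2 of 4 each. Their median log2 fold change was -0.37, -0.65, -0.30, -0.06 and 0.05 in that order of classes. The receptor gene Ifnar2 had 112, 62.4, 56.8 and 79.3 CPM in cancer cells, and Ifnar1 88.4, 52.2, 47.4 and 84.4 CPM in neutrophils. In the other classes Ifnar1 was highest in OE-MLKL 3, with 43.0, 34.4, 35.7 and 62.2 CPM in cancer cells, 83.97, 65.1, 101 and 147 CPM in macrophages, 63.4, 40.3, 58.5 and 131 CPM in T cells and 54.02, 47.9, 62.6 and 143 CPM in dendritic cells. Zbp1, a nucleic acid sensor that can start necroptosis, had 126, 14.6, 33.2 and 74.9 CPM in cancer cells and was singled out after its values were seen. Of 9 sensors and adaptors tested there, 6 were lower and 3 higher under the OE-MLKL label, with a median log2 fold change of -0.085, and 1 was lower at an unadjusted p under 0.05.

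The 9 interferon-gamma-induced comparison genes had lower levels under the OE-MLKL label for 9 in cancer cells and T cells, 8 in neutrophils, 7 in macrophages and 3 in dendritic cells. Their median log2 fold change was -1.16 in neutrophils, -1.03 in cancer cells, -0.40 in T cells, -0.20 in macrophages and 0.16 in dendritic cells. Gbp2, a guanylate-binding protein, had 906, 202, 407 and 861 CPM in neutrophils. Among the members, Rtp4 had 360.1, 43.1, 52.03 and 149 CPM in neutrophils. Tlr7, an RNA-sensing receptor singled out after its values were seen, was higher in the libraries labelled OE-MLKL with 4.498, 24.6, 25.7 and 13.04 CPM in neutrophils, a log2 difference of 1.98 ± 0.55 (SE) and an edgeR adjusted p of 0.554.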

How the data were processed

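Single cells of orthotopic tumours were profiled with the 10x Genomics 3′ assay. The deposited files hold the counts of UMIs that the authors made for every gene and barcode on the mm10 mouse genome, neither filtered nor normalised. The software was Cell Ranger 7.1.0 per the file headers and 2.1.1 in the submitters' processing notes, and the study's methods name a further version, so that the version is uncertain. Whether intronic reads were counted is not given in the sources used here. Values were read as counts.

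A barcode with at least 500 UMIs, more than 200 genes, under 10% mitochondrial and at most 5% haemoglobin UMIs was taken as a cell. Classes were gated on at least 2 own markers, a minimum count and a minimum share of UMIs, and cells with markers of another class were left out. No doublet caller was run, and leaving out the top 5% of UMI totals was an alternative. Cutoffs were set on marker counts. Counts were summed per library and class, and CPM was computed from these sums. Tests used edgeR 4.0.16 in R 4.3.3 (quasi-likelihood, TMM, filterByExpr, Benjamini-Hochberg adjustment over all genes tested, two-sided). The study's own cell-by-cell test was not used, since cells of 1 tumour are not replicates. DESeq2 1.42.0, limma 3.58.1, other filters, gates and scalings, and libraries left out were alternatives. Each fit was tested on simulated data. Intervals are exact 95% intervals and cover counting error only. The study describes 3 mice per group, but the labels do not say how the libraries were replicated. Between the labels, p-values rest on the spread among the OE-MLKL libraries, since OE-Vector had 1. In the fits over classes, which held a library term, they rest on the spread left after the level of each library.

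Values in every library are given, per class, for the 5 members with the highest mean CPM, for the 4 with the largest absolute fold change among those with a mean of at least 20 UMIs, and for members called. The members and all lists were chosen with earlier results of these data known. OE-Vector 2 and 3 were not analysed here, and the values of 1 pathway gene are not reported here.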

Additional observations from a re-analysis of the deposited data

Results flagged for a closer look

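Some members differed in opposite directions between classes, in the sense that every library labelled OE-MLKL lay on one side of OE-Vector 1 in one class and on the other side in another. For Ifi204 the ratio of OE-Vector 1 to the mean of the OE-MLKL libraries was 0.916 in macrophages and 2.53 in neutrophils. Its fitted log2 fold change in macrophages was 0.01 ± 0.27 (SE) and took either sign with 1 OE-MLKL library left out, from -0.028 to 0.039, so that it has no firm direction there. For Ifit2 the ratio was 0.528 in dendritic cells, against 1.43 in macrophages and 2.78 in neutrophils, and the dendritic cell value rests on few UMIs (9 for OE-Vector 1, then 3, 12 and 20 for the OE-MLKL libraries). These opposite directions were seen in the values, and the differences between the named pairs of classes were not tested. In the fit of neutrophils against the mean of the other 4 classes, edgeR gave Ifit2 an adjusted p of 0.167 and Ifi204 0.184.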

How the results depend on the processing

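No paired analysis was possible because only 1 library labelled OE-Vector was analysed, so that a block on the replicate number could not be fitted. Members called between the labels by edgeR were 0 in every class, and 0 to 16 in cancer cells, 0 to 7 in macrophages, 0 to 28 in neutrophils, 1 to 18 in T cells and 0 to 4 in dendritic cells when 1 OE-MLKL library was left out. The upper ends came without OE-MLKL 3, and in macrophages without OE-MLKL 1. DESeq2 called 4 in cancer cells, 4 in macrophages and 4 in neutrophils. With no filter on low counts 2 were called in macrophages (0.0881% of genes), 4 in T cells (0.579%) and 1 in dendritic cells (0.251%). The cause of these changes was not tested. The median log2 fold change of members, over OE-MLKL libraries left out, ran from -1.43 to -0.86 in cancer cells, -1.06 to -0.83 in macrophages, -2.22 to -1.31 in neutrophils, -0.93 to -0.56 in T cells and -0.28 to -0.16 in dendritic cells. With no library term, members higher than in other classes were 5 of 40 in cancer cells (4910 of 13919 genes) and 8 of 40 in macrophages (3221 genes). Members lower were 1 in macrophages (2191 genes), 2 in neutrophils (4448), 18 in T cells (3410) and 2 in dendritic cells (1936). With 1 library left out, members higher were 5 to 8 in cancer cells, 12 to 16 in macrophages and 32 to 34 in neutrophils. They were 2 to 4 in T cells and 6 to 8 in dendritic cells. In the same order of classes, members lower were 19 to 22, 2 to 3, 3 to 4, 24 to 30 and 5 to 10. These fits tested 13777 to 14212 genes. Genes higher were 4787 to 5727, 3732 to 4017, 4156 to 4452, 3870 to 4083 and 1885 to 2587 in that order. Genes lower were 3981 to 4325, 2446 to 3198, 4285 to 5028, 3377 to 3937 and 1810 to 2429. In the fit of neutrophils against the other classes, chosen after the data were seen, 0 to 20 members were called. Single log2 fold changes also turned sign. With 1 OE-MLKL library left out, Ifitm3 ran from -0.33 to 0.015 in cancer cells and from -0.62 to 0.15 in dendritic cells, Ifi204 in macrophages from -0.028 to 0.039, Parp14 in T cells from -0.39 to 0.054, and in dendritic cells Slfn5 from -0.034 to 0.79 and Rsad2 from -1.35 to 2.14. Ifi204 in macrophages was at -0.011 with no filter, and Rsad2 in dendritic cells at -0.51 with limma-voom. Apart from libraries left out, 168 summary values were scored as the same, 6 as stronger and 6 as weaker. A count was scored as the same within a set ratio of the main count. A median was so scored when it moved by less than the SD between the OE-MLKL libraries. Of the other values, 356 were scored as the same, 15 as stronger and 2 as reversed. For single members, the same meant an equal direction and side of the threshold. The ratios in cells of like depth are among these values and were scored by an SD. In T cells 34 and in dendritic cells 35 of the 40 members had a UMI in every library, and depth limits the others. No alternative replaces the missing spread of the OE-Vector group.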
